A study of Mus musculus with 2 samples.

Results

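The glucocorticoid response genes described here are 10 genes: the glucocorticoid receptor gene *Nr3c1* and 9 genes that glucocorticoids are known to induce, *Fkbp5*, *Tsc22d3*, *Zbtb16*, *Sgk1*, *Mt1*, *Mt2*, *Dusp1*, *Klf9* and *Errfi1*. They were chosen by symbol, as 10 of the 49492 genes in the count table, and each was found once. The study asked how mammary basal cells change when macrophages are removed. Clodronate liposomes (CL) are drug-filled vesicles that kill the macrophages engulfing them. Basal cells, which lie under the luminal layer, contract to eject milk and include stem cells, were sorted as lineage-negative CD24+ CD29hi cells from adult wild-type female mice. CL basal was the library from mice given CL, and Ctrl basal was the library from control mice, which the sample label lists as having no treatment and the design text as having received saline. Both were labelled day 7. Each group had 1 library, and how many mice were pooled in it was not given in the sources used here, so a difference between the libraries cannot be told apart from variation between samples.

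Glucocorticoids are adrenal steroid hormones that enter the cell and bind the receptor encoded by *Nr3c1*, which is held ready by heat shock protein chaperones. The bound receptor moves to the nucleus and binds a palindromic DNA element, the glucocorticoid response element (GRE), near genes that it switches on. In the mammary gland glucocorticoids act together with prolactin and insulin on milk protein genes. The induced genes have separate roles and answer to other signals as well: metallothionein genes to zinc, copper and cadmium through the factor Mtf1, and *Dusp1* and *Errfi1* to growth factors and stress.

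Sequence before the annotated gene starts is shown first because these genes are grouped by what is thought to switch them on. RefSeq start sites on GRCm38.p6 gave 16 windows, from 250 bases before a start to 50 after it, for 8 of the 10 genes (*Sgk1* had 6 of the windows and *Tsc22d3* had 3). *Nr3c1* and *Zbtb16* had no window in the table. The complete element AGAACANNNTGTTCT, searched on both strands, was found in 3 of 32851 windows over all genes (0.00913%), and 1 of the 3 belonged to *Sgk1*. It is shown in capitals within the first 100 bases of that window (chr10:21993640-21993739, plus strand, which ends 151 bases before this start site):

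Sgk1: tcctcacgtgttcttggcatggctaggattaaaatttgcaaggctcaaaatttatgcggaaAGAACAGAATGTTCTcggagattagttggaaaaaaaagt

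The metallothionein windows were searched for the core of the metal response element, which Mtf1 binds, spelled TGCACNC or TGCGCNC on either strand. At least 1 core was found in 25.7% of all windows and at least 4 in 0.517%. *Mt2* had 4 cores and *Mt1* had 3. The cores are in capitals in all 250 bases before the *Mt2* start site (chr8:94172368-94172617, 3 of its 4 cores) and in the last 60 bases before the *Mt1* start site (chr8:94179029-94179088, 1 of its 3 cores), both on the plus strand:

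Mt2: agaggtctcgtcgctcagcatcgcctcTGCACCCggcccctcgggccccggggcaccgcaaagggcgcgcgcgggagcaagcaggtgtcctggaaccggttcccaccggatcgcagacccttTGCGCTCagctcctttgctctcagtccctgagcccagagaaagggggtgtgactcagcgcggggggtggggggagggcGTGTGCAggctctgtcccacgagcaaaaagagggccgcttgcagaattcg

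Mt1: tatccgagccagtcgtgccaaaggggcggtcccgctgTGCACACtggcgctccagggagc

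The single hexamer AGAACA, 1 arm of the GRE, was found in 19.0% of all windows. Outside the *Sgk1* window shown above, it was present in 2 other *Sgk1* windows and in 1 *Tsc22d3* window. The windows of *Fkbp5*, *Klf9*, *Dusp1*, *Errfi1*, *Mt1* and *Mt2* held no match to it, which says only that these letters are not in these windows. A match is a description of sequence and was not measured as a bound site. The counts were made per gene and not per start site, so they do not show which *Sgk1* start was used.

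Depth was 38962512 counts for CL basal and 37846008 for Ctrl basal, a ratio of 1.03. After scaling to library size, the 17356 genes whose counts summed to 20 or more were compared. A gene was called at a change of at least 2-fold, or of at least 1.5-fold, with its 95% exact binomial interval off 0. The intervals cover counting error only, and they are too narrow if PCR copies or both mates of a pair were counted. Of the values from 1 to 20, 68.7% in CL basal and 67.9% in Ctrl basal were even. All 15 basal marker genes were detected in both libraries, with 898861 summed counts in CL basal against 861237 in Ctrl basal. Luminal marker genes were lower in CL basal in 16 of 16 cases, with a median log2 fold change of -0.87, and fibroblast markers in 9 of 10 (-0.42). The 14 macrophage marker genes summed to 2328 counts in CL basal against 2079 in Ctrl basal, with *Adgre1* at 10 and 7. In such bulk samples fewer cells of a type and less RNA per cell cannot be told apart.

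The 10 genes spanned a wide range of levels in these libraries. The levels are those of the sorted samples as a whole, not of basal cells alone. Levels are given as CPM (counts scaled to a common library size) per kilobase of exon, which allows genes of different length to be compared. In CL basal they ran from 0.468 for *Zbtb16* to 335 for *Mt2*, and in Ctrl basal from 0.207 to 272 for the same genes. *Mt2* and *Errfi1* stood among the highest 0.985% and 1.39% of the 17356 genes by mean level. *Sgk1*, *Dusp1* and *Mt1* were within the highest 5.82%, 7.13% and 7.25%, and *Klf9* and *Nr3c1* within the highest 18.3% and 24.2%. *Fkbp5* and *Tsc22d3* were at mid and low levels (the highest 40.7% and 66.6%), and *Zbtb16* was near the bottom (85.1%). The order was the same in both libraries except that *Dusp1* and *Mt1*, which lay close together, changed places.

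**Figure D1:**
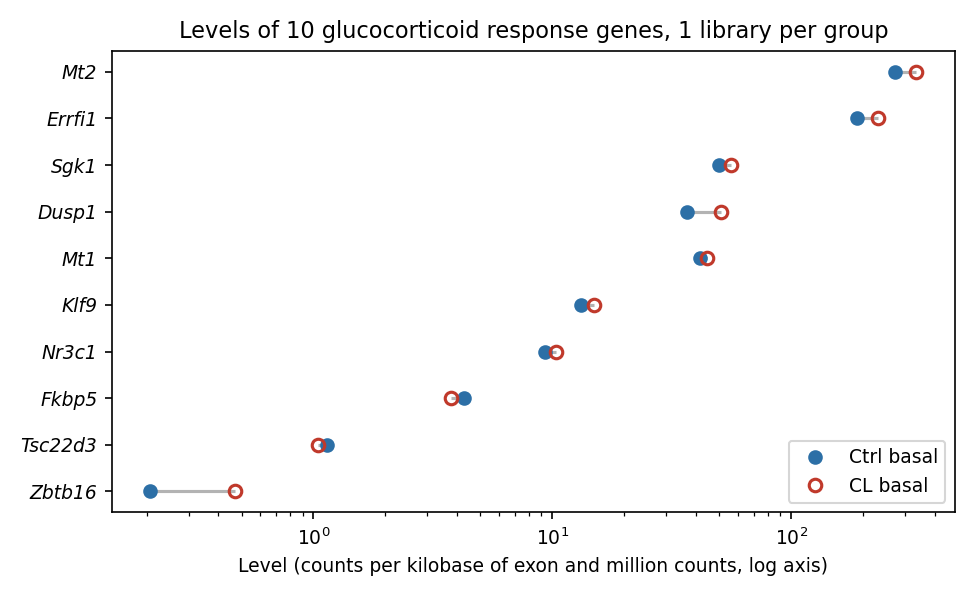
Levels of the 10 genes in Ctrl basal (filled blue) and CL basal (open red), in CPM per kilobase of exon on a log axis, 1 library per group. The genes spread from 0.207 (*Zbtb16*, Ctrl basal) to 335 (*Mt2*, CL basal), and the CL basal point lies to the right of the Ctrl basal point for 8 of the 10.

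Of the 10 genes, only *Zbtb16* was called. It was higher in CL basal by at least 2-fold, against 1.99% of all genes tested that were called higher and 4.44% that were called lower. At 1.5-fold the count was again 1 higher and 0 lower, against 4.79% and 9.45% of all genes. The other 9 genes had log2 fold changes from -0.19 to 0.46. The median of the 10 was 0.18 (0.17 without *Zbtb16*), beside -0.01 over all genes tested.

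By interval alone, 8 of the 10 genes were higher in CL basal, 1 was lower and 1 had an interval that held 0. With counts halved 7 were higher and 1 was lower, since the interval of *Mt1* then held 0. The shares that follow rest on counts as deposited and were not computed with counts halved. Over all genes tested, 25.3% had an interval above 0 and 25.3% one below it. The share above 0 depended on abundance. It was 59.4% of genes with at least 10000 counts, where all 3 such members (*Errfi1*, *Sgk1* and *Mt2*) had one. It was 36.7% of genes with 1000 to 9999 counts, where 4 of 5 members had one, and 15.7% of genes with 100 to 999 counts, where 1 of 2 had one. A small positive value was common among genes with at least 10000 counts, whose median log2 fold change was 0.09. The median was 0.03 among genes with 1000 to 9999 counts and -0.07 among those with 100 to 999.

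**Figure D2:**
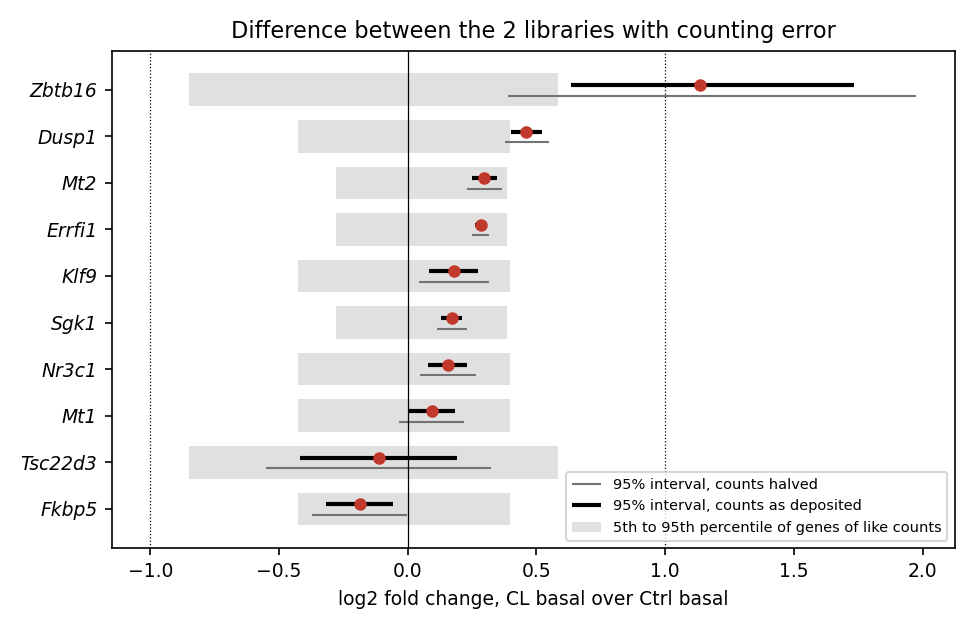
Log2 fold change of CL basal over Ctrl basal for each gene (red points) with the 95% exact binomial interval from the deposited counts (thick lines) and from halved counts, so that a pair of mates counts once (thin lines). Grey bars span the 5th to 95th percentile of all genes with a like number of counts, dotted lines mark 2-fold, and *Zbtb16* and *Dusp1* are the genes whose point lies beyond the grey bar.

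*Nr3c1* (ENSMUSG00000024431.15, chromosome 18, 39410545 to 39491301, minus strand, GRCm38) encodes the glucocorticoid receptor itself. It had 2962 counts in CL basal against 2654 in Ctrl basal, levels of 10.4 and 9.32 per kilobase on the scale above. Its log2 fold change was 0.16 (95% interval 0.08 to 0.23), or 1.11-fold, and 28.3% of the 5592 genes of like abundance had a value as high.

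Among the steroid receptor genes named here, *Nr3c1* had the highest level per kilobase. It was 9.0 times the level of *Nr3c2*, the mineralocorticoid receptor, which also binds glucocorticoids, in CL basal and 10.5 times in Ctrl basal. *Nr3c2* had 287 counts in CL basal against 220 in Ctrl basal (log2 fold change 0.38, 0.12 to 0.64), and it shares 247 exonic bases with an opposite-strand gene that had 4 and 6 counts. The sex steroid receptors below are also genes of luminal cells. The progesterone receptor *Pgr* had 208 and 407 counts (-0.96, -1.22 to -0.73) and the oestrogen receptor *Esr1* 246 and 374 (-0.60, -0.85 to -0.37). Both were called lower at 1.5-fold, and both moved with the luminal marker list, which holds them. Whether luminal RNA contributed to their values was not tested. *Esr2* had 0 counts in CL basal against 8 in Ctrl basal and was too low to compare.

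*Fkbp5*, *Tsc22d3* and *Zbtb16* are often used as readouts of glucocorticoid action. The intervals of *Fkbp5* and *Tsc22d3* overlapped, while that of *Zbtb16* lay above both. *Fkbp5* (chromosome 17, 28399095 to 28517524, minus strand) encodes a co-chaperone that lowers the receptor's affinity for hormone. It had 921 counts in CL basal against 1046 in Ctrl basal, levels of 3.77 and 4.29. The log2 fold change of -0.19 (-0.32 to -0.06) was the lowest of the 10 genes, and the interval from halved counts nearly reached 0 (-0.37 to -0.004).

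*Tsc22d3* (chromosome X, 140539528 to 140600659, minus strand) encodes GILZ, a leucine zipper protein that dampens inflammatory transcription. It had 175 counts in CL basal against 189 in Ctrl basal, levels of 1.05 and 1.14. The log2 fold change was -0.11 with an interval from -0.42 to 0.19, so no difference was detectable at this depth. With counts halved the interval ran from -0.55 to 0.32.

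*Zbtb16* (ENSMUSG00000066687.5, chromosome 9, 48654297 to 48836222, minus strand) encodes PLZF, a zinc finger transcription factor. It had 95 counts in CL basal against 42 in Ctrl basal, levels of 0.468 and 0.207, the lowest of the 10 genes in both libraries. It rose by 2.20-fold, a log2 fold change of 1.14 with an interval from 0.64 to 1.73 that reaches below 2-fold. Of the 6410 genes with 100 to 999 counts, 0.842% were called higher at 2-fold and 0.468% had a value at least as high as that of *Zbtb16*. With counts halved the log2 fold change was 1.09 and the interval widened to 0.39 to 1.98. No exonic base of *Zbtb16* is shared with another gene of the table. *Zbtb16* is also known from some lymphoid cells, which the sort against CD45 should remove. The 10 lymphoid marker genes summed to 717 counts in CL basal against 742 in Ctrl basal, most of them from *Ptprc*, the gene of CD45 (521 and 537), with *Klrb1c* at 0 in both and *Nkg7* at 0 and 2. T and B cell genes were present in both libraries, among them *Cd3d* (30 and 21 counts), *Cd3g* (32 and 30) and *Cd79a* (56 and 49). Of the 8 lymphoid genes with enough counts, 3 had positive and 5 negative log2 fold changes, and all 8 intervals held 0. Their part in the value of *Zbtb16* was not tested.

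The signalling genes of the group had modest positive values. *Dusp1* (chromosome 17, 26505590 to 26508519, minus strand) encodes a phosphatase that switches off MAP kinases. It had 5250 counts in CL basal against 3804 in Ctrl basal, levels of 50.6 and 36.8. Its log2 fold change of 0.46 (0.40 to 0.52), or 1.38-fold, was the second highest of the 10, and 3.02% of genes with 1000 to 9999 counts had a value as high.

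*Errfi1* (chromosome 4, 150853919 to 150868892, plus strand) encodes an inhibitor of the EGF receptor. It had 31720 counts in CL basal against 26002 in Ctrl basal, levels of 230 and 189, and alone made up 50.1% and 49.2% of the counts of the 10 genes. Its log2 fold change was 0.28 (0.26 to 0.31). The interval was narrow because of the many counts, yet 14.2% of the 1505 genes with at least 10000 counts had a value as high.

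*Sgk1* (chromosome 10, 21882184 to 21999903, plus strand), whose GRE is shown above, encodes a kinase that acts on ion channels and cell survival. It had 10586 counts in CL basal against 9379 in Ctrl basal, levels of 56.2 and 49.9. The log2 fold change was 0.17 (0.13 to 0.21), and it fell to 0.09 when the trend of the ratio on abundance was removed. *Klf9* (chromosome 19, 23141226 to 23166911, plus strand), a Krüppel-like transcription factor, had 1881 and 1658 counts and levels of 15.0 and 13.2. Its log2 fold change was 0.18 (0.08 to 0.28). The intervals of *Sgk1*, *Klf9* and *Nr3c1* overlapped one another.

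*Dusp1* is also an immediate early gene, one that cells switch on within minutes of a stimulus or of tissue dissociation. In the list of 26 other immediate early genes, 22 had positive and 4 negative log2 fold changes, with a median of 0.24, and 0 were called at 1.5-fold in either direction, beside 4.79% higher and 9.45% lower of all genes tested. The largest changes in the list were those of *Nr4a1* (0.53, 0.49 to 0.56), *Socs3* (0.49, 0.46 to 0.51) and *Gadd45b* (0.42, 0.37 to 0.46). The value of *Dusp1* therefore lay within the range of this list. Its part in the value of *Dusp1* was not tested.

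*Mt1* and *Mt2* encode small cysteine-rich proteins that bind zinc and copper. They lie side by side on chromosome 8 on the plus strand (*Mt2* at 94172664 to 94173568 and *Mt1* at 94179082 to 94180327). *Mt2* had 7562 counts in CL basal against 6141 in Ctrl basal, with a log2 fold change of 0.30 (0.25 to 0.35). *Mt1* had 2119 and 1982 counts (0.09, 0.004 to 0.18), and its interval held 0 with counts halved (-0.03 to 0.22). Their intervals did not overlap, with counts as deposited or halved, so the ratio of *Mt2* to *Mt1* counts was higher in CL basal (3.57) than in Ctrl basal (3.10) beyond counting error.

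Counting limits what the metallothionein values show. Of the 588 exonic bases of *Mt2*, 432 also belong to *RP23-98C9.5* on the other strand, which had 7546 counts in CL basal against 6127 in Ctrl basal. The counts of the 2 genes were nearly equal, so the reads of the pair cannot be told apart. The exons of *Mt1* merge into 1 block of 1246 bases because annotated transcripts keep introns, while its shortest coding transcript has 549 bases, and the shortest coding transcript of *Mt2* has 388 bases. The levels per kilobase of *Mt1* (44.2 and 41.5) and *Mt2* (335 and 272) therefore depend on the length used. The longest run of bases that annotated *Mt1* and *Mt2* transcripts share exactly is 20.

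Other genes of zinc handling were set beside the metallothioneins. Of 18 such genes compared, 2 were called higher and 0 lower at 1.5-fold, beside 4.79% and 9.45% of all genes tested, and the median log2 fold change was 0.19. *Slc30a1*, the zinc exporter of the cell surface and a known target of Mtf1, had 1625 counts in CL basal against 873 in Ctrl basal (log2 fold change 0.89, 0.77 to 1.01). It overlaps *1700034H15Rik* on the other strand over 468 of 5244 exonic bases, and that gene had 478 and 314 counts. *Slc30a6*, a zinc transporter of the Golgi, had 80 and 32 counts (1.27, 0.71 to 1.96) and was the gene called at 2-fold. *Slc39a13*, a zinc transporter, had 231 and 316 counts (-0.45, -0.71 to -0.21). It overlaps *Psmc3* on the other strand over 215 exonic bases, and *Psmc3* had 9328 and 9576. *Mtf1* had 1585 and 1360 counts (0.22, 0.11 to 0.32). *Mt3*, known from brain, had 2 and 0 counts, and *Mt4*, known from stratified epithelia, had 0 and 2, too few to compare.

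A longer list of genes that glucocorticoids induce in other tissues was then described. Of 37 genes, 34 had enough counts, 18 with positive and 16 with negative log2 fold changes and a median of 0.09. At 1.5-fold 1 was called higher and 4 lower, beside 4.79% and 9.45% of all genes tested. *Ddit4*, an inhibitor of mTORC1, was the gene called higher, with 2661 counts in CL basal against 1764 in Ctrl basal (0.59, 0.50 to 0.68). Among those called lower, *Anxa1*, which encodes annexin A1, an anti-inflammatory protein, had 6636 and 10084 counts (-0.61, -0.65 to -0.56), and *Arrdc2*, an arrestin-domain gene, had 77 and 146 (-0.91, -1.34 to -0.52). The other 2 called lower, named after their values were seen, were *Rhob*, a small GTPase (2487 and 3735 counts, -0.59), and *Pck1*, an enzyme of gluconeogenesis (4 and 22 counts, -2.0, -4.46 to -0.90), the only gene of this list called at 2-fold. *Per1*, a clock gene with a known GRE, had 1788 and 1391 counts (0.36, 0.26 to 0.46). The longer list thus held values on both sides of 0 in near equal number.

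Hormone access and receptor handling were described by 27 genes for chaperones, cofactors, steroid-converting enzymes and exporters, of which 26 had enough counts. Their median log2 fold change was 0.11, with 0 called higher and 2 lower at 1.5-fold, beside 4.79% and 9.45% of all genes tested. *Hsd11b1*, which regenerates active glucocorticoid inside cells, had 24 counts in CL basal against 58 in Ctrl basal (-1.21, -2.03 to -0.57), and *H6pd*, which supplies its cofactor, had 270 and 432 (-0.68, -0.91 to -0.46). *Hsd11b1* was at levels of 0.147 and 0.356 per kilobase, below those of every member in CL basal and of every member but *Zbtb16* in Ctrl basal, and it is known from fibroblasts and adipocytes, whose marker lists were lower too (medians of -0.42 and -0.59). Their part in these values was not tested. *Hsd11b2*, which inactivates glucocorticoid, had 10 and 6 counts, too few to compare.

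The chaperone side differed less. *Hsp90ab1*, an HSP90 that holds the unbound receptor, was named after its values were seen and had levels of 3689 and 3148 per kilobase (0.23, 0.22 to 0.24). *Fkbp4*, the co-chaperone that competes with *Fkbp5* for the receptor complex, had 7603 and 7677 counts (-0.02, -0.06 to 0.03), an interval within 0.06 of 0 on either side. The cofactor *Ncoa1* had 1587 and 1197 counts (0.40, 0.29 to 0.51), and *Gmeb2*, a binding factor of glucocorticoid-modulated genes, had 1255 and 938 (0.42, 0.29 to 0.54).

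**Figure D3:**
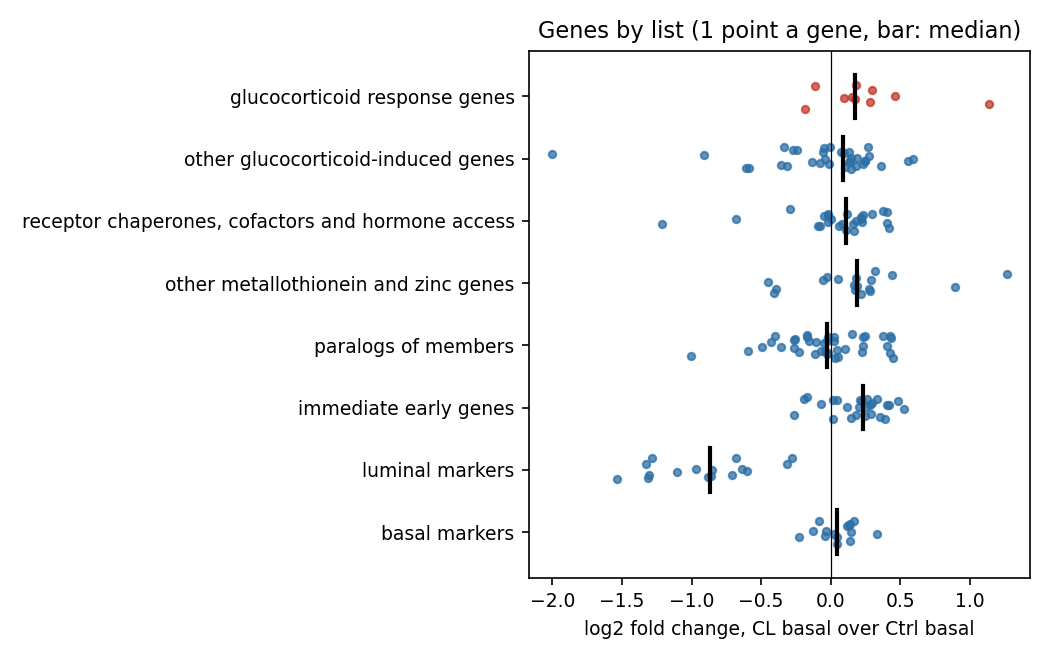
Log2 fold change of CL basal over Ctrl basal for genes with at least 20 counts in 8 lists, 1 point per gene with the median as a bar (the vertical spread has no meaning, and a gene can be in more than 1 list). The glucocorticoid response genes (red, median 0.18) overlap the immediate early genes (0.24) and the other glucocorticoid-induced genes (0.09), while luminal markers lie apart at a median of -0.87.

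Abundance set the scale on which these values can be read. The 5th to 95th percentile of log2 fold changes ran from -0.85 to 0.59 among genes with 100 to 999 counts, the class of *Zbtb16* and *Tsc22d3*, and from -0.43 to 0.40 among genes with 1000 to 9999 counts. For genes with at least 10000 counts the range was -0.28 to 0.39 with a median of 0.09. *Zbtb16* and *Dusp1* were the only members above the 95th percentile of their class, and 0 members were below the 5th.

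**Figure D4:**
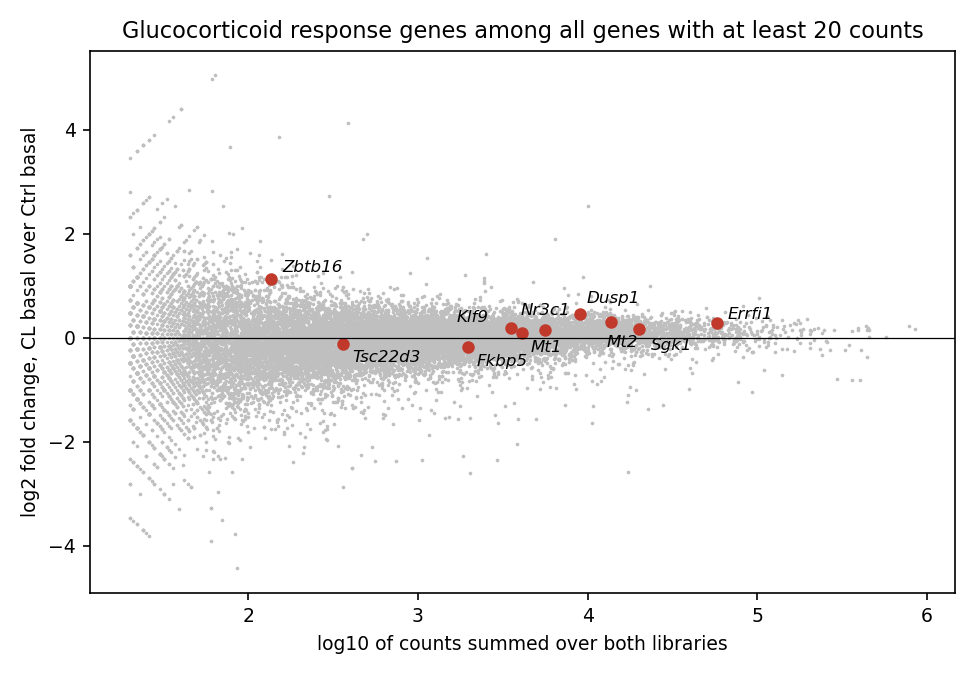
Log2 fold change of CL basal over Ctrl basal against the log10 of counts summed over both libraries, for all 17356 genes with at least 20 counts (grey) and the 10 glucocorticoid response genes (red). The grey cloud narrows as counts rise, and *Zbtb16*, at 137 counts over both libraries, stands at its upper edge.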

How the data were processed

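One table was deposited. In it the authors gave unnormalized read counts for each gene, summed over its annotated exons, beside the exonic length, in the column layout of featureCounts. The submitters' processing notes name GRCm38 and mm10. The aligner, annotation release, use of strand and treatment of PCR copies were not given in the sources used here. A deposited ratio and log2 ratio of the 2 libraries were not used.

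Counts were scaled with TMM (edgeR 4.0.16, R 4.3.3; factors 0.987 for CL basal and 1.01 for Ctrl basal), and log2 fold changes used a prior count of 2. Exact (Clopper-Pearson) intervals of 95% came from scipy 1.17.1. No model with a spread between replicates can be fitted to 1 library per group, so no p-value is given. Intervals and calls were tested on simulated counts. That test cannot show variation between samples, which 1 library per group leaves unmeasured. The members, gene lists and thresholds were chosen with earlier results of these data known. Named genes were the members, *Nr3c2*, *Hsd11b1*, *Hsd11b2*, *Per1*, *Mt3*, *Mt4*, *Mtf1*, *Fkbp4* and the steroid receptors. Also named were the 3 genes with the largest absolute log2 fold change at 100 counts or more in each list. The lists of cell type markers were outside this rule. Single markers were named to check cell types, and 1 gene of the rule is not reported here. Alternatives were scaling by upper quartile, total counts or DESeq2 1.42.0 size factors, prior counts of 0.5 and 5, other count filters (1 or 100), halved counts, equal depth and removal of trends on abundance or length. Gene spans are those of the deposited table, gene identifiers are from GENCODE M21 and start-site sequences from RefSeq (GRCm38.p6).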

Additional observations from a re-analysis of the deposited data

How the results depend on the processing

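No paired analysis was possible because only 1 library stood in each group, and none could be left out. The calls among the 10 genes were the same under all 11 alternatives: 1 higher and 0 lower at 2-fold and at 1.5-fold. Their median log2 fold change ran from 0.12 to 0.21 and that of *Zbtb16* from 1.09 to 1.24, while the median of all genes tested ran from -0.04 to 0.03. Of 110 values of single members, 0 changed sign and 103 stayed within the main interval. The 7 that left it belonged to *Errfi1* (0.20 to 0.32, under 4 alternatives) and, with the trend on abundance removed, to *Sgk1* (0.09), *Mt2* (0.22) and *Dusp1* (0.39). That alternative also lowered *Nr3c1* to 0.10 and *Mt1* to 0.05, within their intervals. Counts over all genes, main values 345 higher and 770 lower at 2-fold, moved with the filter: 743 and 1277 without one, and 65 and 246 with at least 100 counts, since other genes are then tested. With counts halved 217 were higher, since fewer counts stand behind each gene. With the length of the longest coding transcript in place of all exons, an alternative chosen after seeing the data, levels in CL basal moved by over 1.5 times for *Tsc22d3* (1.05 to 2.31), *Fkbp5* (3.77 to 6.21) and *Sgk1* (56.2 to 88.9), and *Klf9* and *Nr3c1* changed places in the order. Depth limits *Zbtb16* and *Tsc22d3* most.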

Other observations

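Genes related in sequence to the members showed no shared direction. Of 39 paralogs with enough counts (other FKBP, TSC22, SGK, dual-specificity phosphatase and Krüppel-like genes), 0 were called higher and 1 lower at 1.5-fold, beside 4.79% and 9.45% of all genes tested, with a median log2 fold change of -0.02. The phosphatases *Dusp7* (5813 counts in CL basal against 4251 in Ctrl basal, 0.45) and *Dusp9* (192 and 290, -0.59, the gene called lower) differed in sign, and *Klf10* had 6161 and 4544 counts (0.44).

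The other marker lists gave these medians of log2 fold changes: basal 0.05, macrophage -0.23 over 9 genes, lymphoid -0.02, endothelial -0.24 and squamous keratinocyte 0.24. Of the 8 squamous genes with enough counts, 4 had positive and 4 negative values. At 2-fold 3 were called higher and 0 lower, beside 1.99% and 4.44% of all genes tested. Named after their values were seen, these were *Krt1* (367 counts in CL basal against 19 in Ctrl basal, 4.13), *Krt10* (262 and 38, 2.72) and *Calml3* (93 and 24, 1.87). At 1.5-fold 4 were called higher and 1 lower, beside 4.79% and 9.45% of all genes tested. Also named after their values were seen, *Lor* (33 and 18, 0.80) was the other gene called higher. *Sbsn*, with the most counts of the list (615 and 1196, -0.96), was the gene called lower.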
